A study of Mus musculus with 6 samples.

Results

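Egr1, Egr2 and Egr3 encode zinc finger transcription factors, and Nab1 and Nab2 encode the corepressors that bind them. These 5 genes were taken by name from the 21887 protein-coding mouse genes of the RefSeq GRCm38.p6 gene table. For each gene, peaks of open chromatin were collected over the gene body extended by 50 kb on each side, called the window below. The DTR group held 3 libraries of monocytes from PF4cre-iDTR mice given diphtheria toxin, labelled as thrombocytopenic, and the WT group held 3 libraries of monocytes from wild-type mice given the same toxin. In the PF4cre-iDTR genotype, Cre recombinase under a promoter active in megakaryocytes, the cells that make platelets, turns on a receptor for the toxin. WT mice lack these transgenes, so the genotype and the loss of platelets cannot be told apart. Each library was an ATAC-seq library from an aliquot of blood monocytes, in which the Tn5 transposase cuts accessible DNA and adds sequencing adapters. Neither age nor sex is stated, nor whether a library came from 1 mouse or a pool, so p-values measure only the spread between these libraries.

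EGR factors are immediate early proteins. Their genes are switched on within minutes of growth factor, adhesion or inflammatory signals, mainly through kinase cascades and serum response factor (SRF), which binds CArG boxes with ETS-domain partners such as ELK1, and through CREB. EGR1 and EGR2 act in monocyte and macrophage differentiation, where together with NAB2 they hold down neutrophil genes. NAB proteins bind EGR1, EGR2 and EGR3 through a shared inhibitory domain and recruit the NuRD deacetylase complex, and NAB2 is itself induced by EGR factors, which closes a negative feedback loop.

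RefSeq promoters of Egr2, Nab1 and Nab2, 3 of the 5 genes, were available, as the 250 bases before an annotated start in GRCm38.p6. A pair of the 5 Egr2 promoters and those of Nab1 and Nab2 are shown, and all 250 bases of each lay under a peak in all 6 libraries. The Egr2 promoters are at chr10:67537316-67537565 (promoter A) and chr10:67537619-67537868 (promoter B), both on the plus strand. Another, at chr10:67537620-67537869, was also fully covered but is nearly the same sequence as promoter B, with the same CArG box, and is not shown. The Nab1 promoter is at chr1:52500449-52500698 and that of Nab2 at chr10:127666704-127666953, both on the minus strand. Sequences run 5′ to 3′, and capitals mark CArG boxes in Egr2 and EGR motifs in Nab1.
Egr2 promoter A: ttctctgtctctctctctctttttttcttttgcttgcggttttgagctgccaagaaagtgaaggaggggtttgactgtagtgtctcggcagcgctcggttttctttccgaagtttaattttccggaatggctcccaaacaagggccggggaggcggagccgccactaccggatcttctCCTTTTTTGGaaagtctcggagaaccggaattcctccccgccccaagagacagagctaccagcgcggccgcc
Egr2 promoter B: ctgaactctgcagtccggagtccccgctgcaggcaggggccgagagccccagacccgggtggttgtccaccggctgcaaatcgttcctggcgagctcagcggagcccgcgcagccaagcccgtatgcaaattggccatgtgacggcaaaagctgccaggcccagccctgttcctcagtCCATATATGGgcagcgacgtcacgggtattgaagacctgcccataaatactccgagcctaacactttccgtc
Nab1 promoter: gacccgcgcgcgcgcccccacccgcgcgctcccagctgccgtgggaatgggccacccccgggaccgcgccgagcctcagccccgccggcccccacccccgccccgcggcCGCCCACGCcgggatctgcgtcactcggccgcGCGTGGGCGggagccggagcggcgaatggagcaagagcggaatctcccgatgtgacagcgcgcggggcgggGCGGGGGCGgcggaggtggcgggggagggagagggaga
Nab2 promoter: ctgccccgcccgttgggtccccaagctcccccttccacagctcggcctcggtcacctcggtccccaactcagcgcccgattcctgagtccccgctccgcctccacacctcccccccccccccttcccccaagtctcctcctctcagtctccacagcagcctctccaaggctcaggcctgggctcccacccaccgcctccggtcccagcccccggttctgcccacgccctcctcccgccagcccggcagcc

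The promoters were searched on both strands for the EGR motifs GCGTGGGCG and GCGGGGGCG, for the CREB site TGACGTCA and for the CArG box. Each shown Egr2 promoter held 1 CArG box that began 72 bases before the start, CCTTTTTTGG in promoter A and CCATATATGG in promoter B. A CArG box was present in 1.47% of the 32851 RefSeq promoters of this length. The Nab1 promoter held 3 EGR motifs that did not overlap: GCGTGGGCG on the opposite strand, beginning 141 bases before the start, the same motif on the gene's strand 109 bases before it, and GCGGGGGCG 38 bases before it. Of all promoters, 0.536% held GCGTGGGCG, 2.57% held GCGGGGGCG and 3.06% held either. The Nab1 promoter is 80.8% G and C, against a median of 52.4% for all promoters. The Nab2 promoter held 0 exact matches to any of these motifs, and 0 of these promoters held the full CREB site TGACGTCA, present in 1.55% of all. Shorter or inexact sites were not searched for, so these counts do not show that such sites are absent. The other Egr2 promoters lay partly or wholly under peaks: the first one had 145, 147 and 149 of its 250 bases covered in DTR libraries and 147, 149 and 147 in WT libraries.

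The deposited lists held 81567 to 84029 peaks per DTR library and 77867 to 80475 per WT library, and covered 48.1 to 50.1 Mb in DTR and 43.8 to 47.7 Mb in WT, so DTR lists were longer throughout the genome. No read counts came with them, and the depth of each library is unknown. Fold enrichment below is the signal value of a deposited peak, which was read as the ratio that MACS2 writes there, peak over background. What that background was is not stated. It was averaged over the peaks of a window or region by width. All 11 monocyte markers, among them Csf1r, Ccr2 and Spi1, had a peak within 1 kb of the gene body in every library. So had 6 of 10 neutrophil, 6 of 10 T and NK cell, 8 of 8 B cell, 7 of 10 megakaryocyte and platelet and 4 of 8 erythroid markers. Among the others, Elane and Retnlg, Cd8a, Ncr1 and Zap70, Ppbp, and Hba-a1, Hbb-bs and Slc4a1 had none in any library. The length covered over the markers was 33.5 to 35.2 kb in DTR and 30.6 to 34.0 kb in WT for monocytes, 9.998 to 11.2 against 9.79 to 10.4 kb for neutrophils, 5.14 to 5.80 against 5.20 to 5.80 kb for T and NK cells, and 6.38 to 7.37 against 6.32 to 6.74 kb for B cells. It was 13.99 to 14.7 kb in DTR against 13.6 to 14.05 kb in WT for megakaryocytes and platelets, and 3.28 to 3.65 against 2.73 to 3.18 kb for erythroid cells. The part of other cell types in the results was not tested.

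The windows of the 5 genes together held 57, 57 and 56 peaks in the DTR libraries, against 59, 58 and 60 in the WT libraries. Every DTR library thus had fewer peaks there than every WT library, although the DTR lists are the longer ones. A stretch called as a pair of peaks counts more than once in this sum. With overlapping peaks merged into regions over the libraries, 49 regions had a peak in all 6 libraries. Of the 16 others, 8, 6 and 5 had a peak in the DTR libraries and 8, 6 and 9 in the WT libraries, so by region the groups overlap. The sum of peaks over chosen genes was not tested. The covered length was 44987, 41337 and 43725 bp in DTR against 44269, 39494 and 41844 bp in WT, and these ranges overlap. By gene, none of the 5 passed an adjusted p of 0.05 in limma, fitted over 18152 gene windows with at least 1 peak, for the number of peaks, the covered length or the fold enrichment. Among all windows, 1.29% were called higher and 0.149% lower in DTR for the number of peaks, 0.231% and 0% for covered length, and 0.231% and 0.0496% for fold enrichment. Without adjustment, 7.42%, 16.95% and 7.54% of all windows had a p under 0.05 for number, covered length and fold enrichment. All DTR libraries lay above all WT libraries in 0 of the 5 genes for number (5.32% of all windows), in 1 for covered length (23.9%) and in 0 for fold enrichment (6.54%), and below in none (0.507%, 0.325% and 6.13%).

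**Figure D1:**
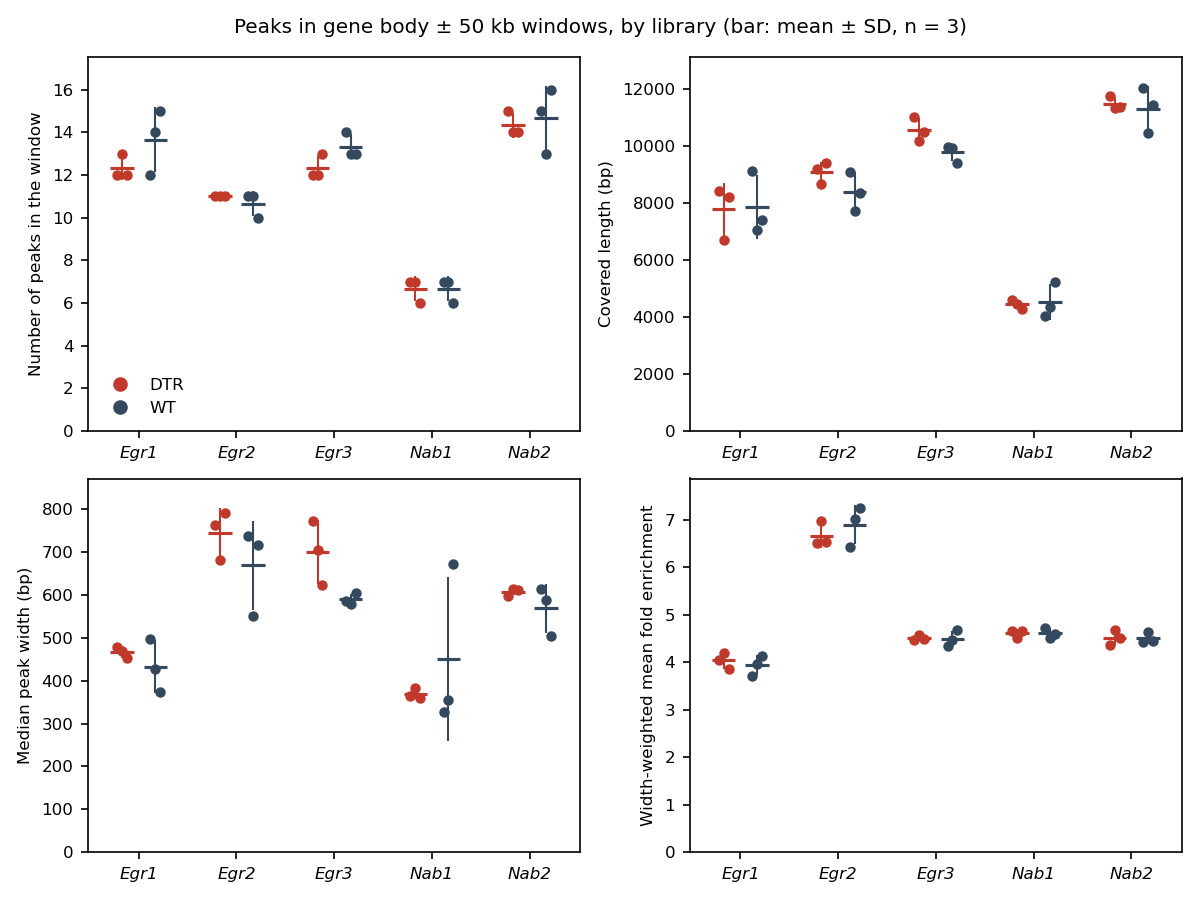
Each point is 1 library (DTR left of WT for each gene), with the mean and SD of 3 libraries, for the number of peaks, covered length in bp, median peak width in bp and width-weighted mean fold enrichment of the window. The DTR and WT points interleave in all panels except the covered length and median width of Egr3, where the 3 DTR libraries lie above the 3 WT libraries.

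How much of each window was open set the genes apart more than the groups did. Nab2 had the most densely covered window, with 11.1%, 10.7% and 10.8% of its length under peaks in DTR and 11.4%, 9.89% and 10.8% in WT. Egr3 followed with 10.5%, 9.67% and 9.95% in DTR against 9.48%, 9.43% and 8.94% in WT, and Egr2 had 8.53%, 8.04% and 8.72% against 8.45%, 7.17% and 7.74%. Egr1 had 8.12%, 6.47% and 7.92% in DTR against 8.81%, 6.79% and 7.15% in WT. Nab1, with the longest gene body, had 3.18%, 3.07% and 2.95% in DTR against 2.78%, 2.99% and 3.62% in WT. In this order Nab2 overlapped Egr3 and Egr2 overlapped Egr1 over the 6 libraries, while Egr3 lay above Egr2 and Egr1 above Nab1 in every library. Among all tested windows, the mean covered share stood at percentile 95.4 for Nab2, 91.7 for Egr3, 83.6 for Egr2, 79.8 for Egr1 and 35.0 for Nab1. The mean fold enrichment of the same windows was low for 4 genes, at percentiles 3.82 for Egr1, 6.03 for Egr3, 6.13 for Nab2 and 6.85 for Nab1. Egr2 differed, at percentile 66.1.

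All 5 genes had a broad open region of low to middling fold enrichment at or, for Egr3, just outside the gene start. These regions, called start regions, covered on average 1931 bp at Egr1, 2561 bp at Egr2, 1993 bp at Egr3, 2018 bp at Nab1 and 2374 bp at Nab2. The median over the 68712 merged regions with a peak in all 6 libraries was 548 bp, and the median over the 10600 of these that overlap a RefSeq promoter was 982 bp. Among the promoter regions the widths stood at percentiles 94.2 (Egr1), 99.0 (Egr2), 95.1 (Egr3), 95.4 (Nab1) and 98.2 (Nab2). Their fold enrichment was below the promoter median of 7.04 in all 5 genes, at percentiles 11.7 (Egr1), 35.7 (Egr2), 22.8 (Egr3), 24.8 (Nab1) and 4.58 (Nab2). These percentiles describe the 6 libraries together and were not tested. They rank a ratio to an unstated background, and low values did not mean weak calls. In DTR replicate 1 the −log10 q was 200 (Egr1), 213 (Egr2), 86.8 (Egr3), 159 (Nab1) and 54.3 (Nab2). The smallest in that list was 1.02. For Egr1 and Egr3, which have no promoter in the table, the start region is the one at or within 1 kb of the lower-coordinate end of the gene. That of Egr3 ends short of the gene and was a pair of peaks in 4 of the 6 libraries, so its width is the sum of the pair there.

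**Figure D2:**
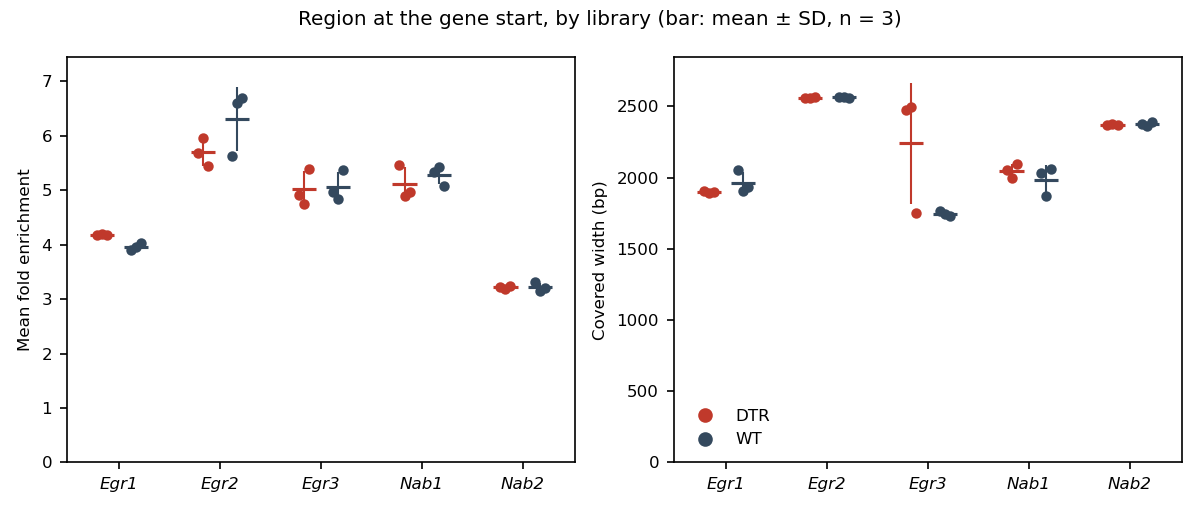
The fold enrichment (left) and covered width in bp (right) of the start region of each gene in each library, with DTR left of WT and bars for the mean and SD of 3 libraries. The 3 Egr1 points of DTR lie above those of WT in fold enrichment, and 2 of the 3 DTR libraries stand apart in the width of the Egr3 start region, at 2474 and 2496 bp.

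Egr1 encodes the founding EGR factor, an early responder to mitogens and shear stress. Its window, on chromosome 18, reaches into Kdm3b, a histone demethylase gene, Reep2, the long noncoding RNA Gm41689 and Etf1, which encodes a translation release factor. It held 12, 13 and 12 peaks in DTR and 12, 14 and 15 in WT, covering 8425, 6708 and 8214 bp against 9138, 7045 and 7419 bp. The groups overlapped in both measures, with a log2 difference of −0.13 (SE 0.09, adjusted p = 0.717) for the number and of −0.01 (SE 0.12, adjusted p = 0.955) for the covered length, by limma. Its mean fold enrichment was 4.06, 4.21 and 3.86 in DTR and 3.72, 3.97 and 4.13 in WT, again overlapping.

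At the Egr1 start, 18:34859802-34861866, fold enrichment was 4.18, 4.19 and 4.18 in DTR against 3.91, 3.96 and 4.03 in WT. All DTR values lay above all WT values, by a log2 difference of 0.08 that did not pass the test (SE 0.06, limma adjusted p = 0.721 over 68712 regions). The width of that peak ran the other way, 1905, 1890 and 1897 bp in DTR against 2050, 1906 and 1935 bp in WT. A region 39.3 kb from the lower-coordinate end, 18:34900498-34901768, was narrower in every DTR library, at 410, 433 and 398 bp against 1252, 692 and 653 bp in WT, while its fold enrichment was higher, at 4.47, 5.46 and 4.39 against 3.29, 4.17 and 3.81. Neither difference was called, with a log2 difference of −1.0004 (SE 0.26, adjusted p = 0.504) in width and 0.34 (SE 0.12, adjusted p = 0.363) in fold enrichment, by limma. The widest call, in WT replicate 1, also had the lowest fold enrichment. Whether the differences in width and in fold enrichment are independent was not tested. The test of width turned on 1 library: without WT replicate 1 the log2 difference was smaller, at −0.70, yet passed with a limma adjusted p of 0.0443. The share of all regions that passed without that library is not given here. A small region at 24.8 kb, 18:34886051-34886244, was 176, 180 and 174 bp wide in DTR against 148, 152 and 145 bp in WT (log2 difference 0.25, SE 0.04, limma adjusted p = 0.232). Its fold enrichment was 2.5001, 2.81 and 2.67 in DTR against 2.15, 2.61 and 2.06 in WT, which overlap. At 27.4 kb the fold enrichment was 3.53, 3.45 and 3.86 in DTR against 3.28, 2.94 and 3.38 in WT, without overlap and with an adjusted p of 0.491 by limma.

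The sole region of the 5 windows with a peak in every library of one group and in none of the other was also near Egr1. It lies in Etf1 at 18:34908429-34908833 and had no peak in the DTR libraries and a peak in each of the 3 WT libraries, with fold enrichments of 2.47, 2.53 and 2.53 and widths of 405, 160 and 140 bp. These were weak calls, with a −log10 q of 2.19, 1.83 and 1.82, where the smallest in the WT lists were 1.01, 1.01 and 1.03. With stricter peaks no WT-only region was left. Over all 92757 merged regions, 0.82% were found in the 3 DTR libraries alone and 0.0992% in the 3 WT libraries alone. Leaving out a library changed such counts: without DTR replicate 1 the windows held 2 WT-only regions, and without WT replicate 3 they held 1 DTR-only region. The rule is looser there, as fewer libraries must lack a peak, and the shares above are for the full set of libraries.

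Egr2 encodes the factor known as Krox20, required for hindbrain patterning and myelination and induced in alternatively activated macrophages. Its window lies on chromosome 10 among the long noncoding RNA genes Gm32255, Gm40679, Gm32176, 4930563J15Rik and Gm32364 and the gene Ado, which encodes a thiol dioxygenase. It held 11, 11 and 11 peaks in DTR against 11, 11 and 10 in WT, covering 9185, 8663 and 9389 bp against 9100, 7725 and 8341 bp. The groups overlapped, and the log2 difference in covered length was 0.12 (SE 0.07, limma adjusted p = 0.383). The window's fold enrichment was the highest of the 5 genes, at 6.52, 6.97 and 6.52 in DTR against 6.43, 7.02 and 7.24 in WT, a log2 difference of −0.04 (SE 0.04, limma adjusted p = 0.888).

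The Egr2 start region, 10:67535350-67537917, spans the CArG boxes printed above and kept its width to within a few bases, at 2558, 2560 and 2562 bp in DTR and 2566, 2562 and 2560 bp in WT. Its fold enrichment was 5.69, 5.95 and 5.45 in DTR against 5.63, 6.61 and 6.70 in WT, so that WT replicate 1 lay among the DTR libraries (log2 difference −0.14, SE 0.08, limma adjusted p = 0.609). Of the 10 Egr2 regions found in every library, 8 had a lower and 2 a higher fold enrichment in DTR, and all 10 overlapped between groups. Over all 68712 such regions the median log2 difference in fold enrichment was 0.01. All DTR values lay above all WT values in 10.4% of them and below in 5.11%, so most regions overlap. The peaks with the highest fold enrichment of all 5 windows lay away from the start, and are named after their values were seen. At 31.6 kb above the lower-coordinate end, 10:67566062-67567087 had fold enrichments of 10.1, 9.17 and 9.44 in DTR and 9.99, 9.15 and 9.53 in WT. At 15.9 kb below it, in Gm32255, 10:67518533-67519385 had 9.31, 8.84 and 9.16 in DTR and 9.59, 8.90 and 10.3 in WT. These values put neither group above the other. By −log10 q these peaks did not rank highest: in DTR replicate 1 they had 51.5 and 61.7, against 213 at the Egr2 start. The largest differences in fold enrichment beside the start were at −51.1 kb, with 5.76, 6.27 and 5.63 in DTR against 5.87, 4.91 and 5.35 in WT, and at −31.2 kb, with 7.02, 6.39 and 6.96 against 6.48, 7.95 and 7.89, with adjusted p of 0.645 and 0.693 by limma.

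One Egr2 region switched between a narrow and a wide call without following the groups. At −40.8 kb, 10:67493647-67494672 was 1016, 180 and 1016 bp wide in DTR and 977, 166 and 172 bp wide in WT. The log2 difference of 0.91, the highest in width among the 49 regions found in all libraries, had an SE of 1.03 and a limma adjusted p of 0.811.

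**Figure D3:**
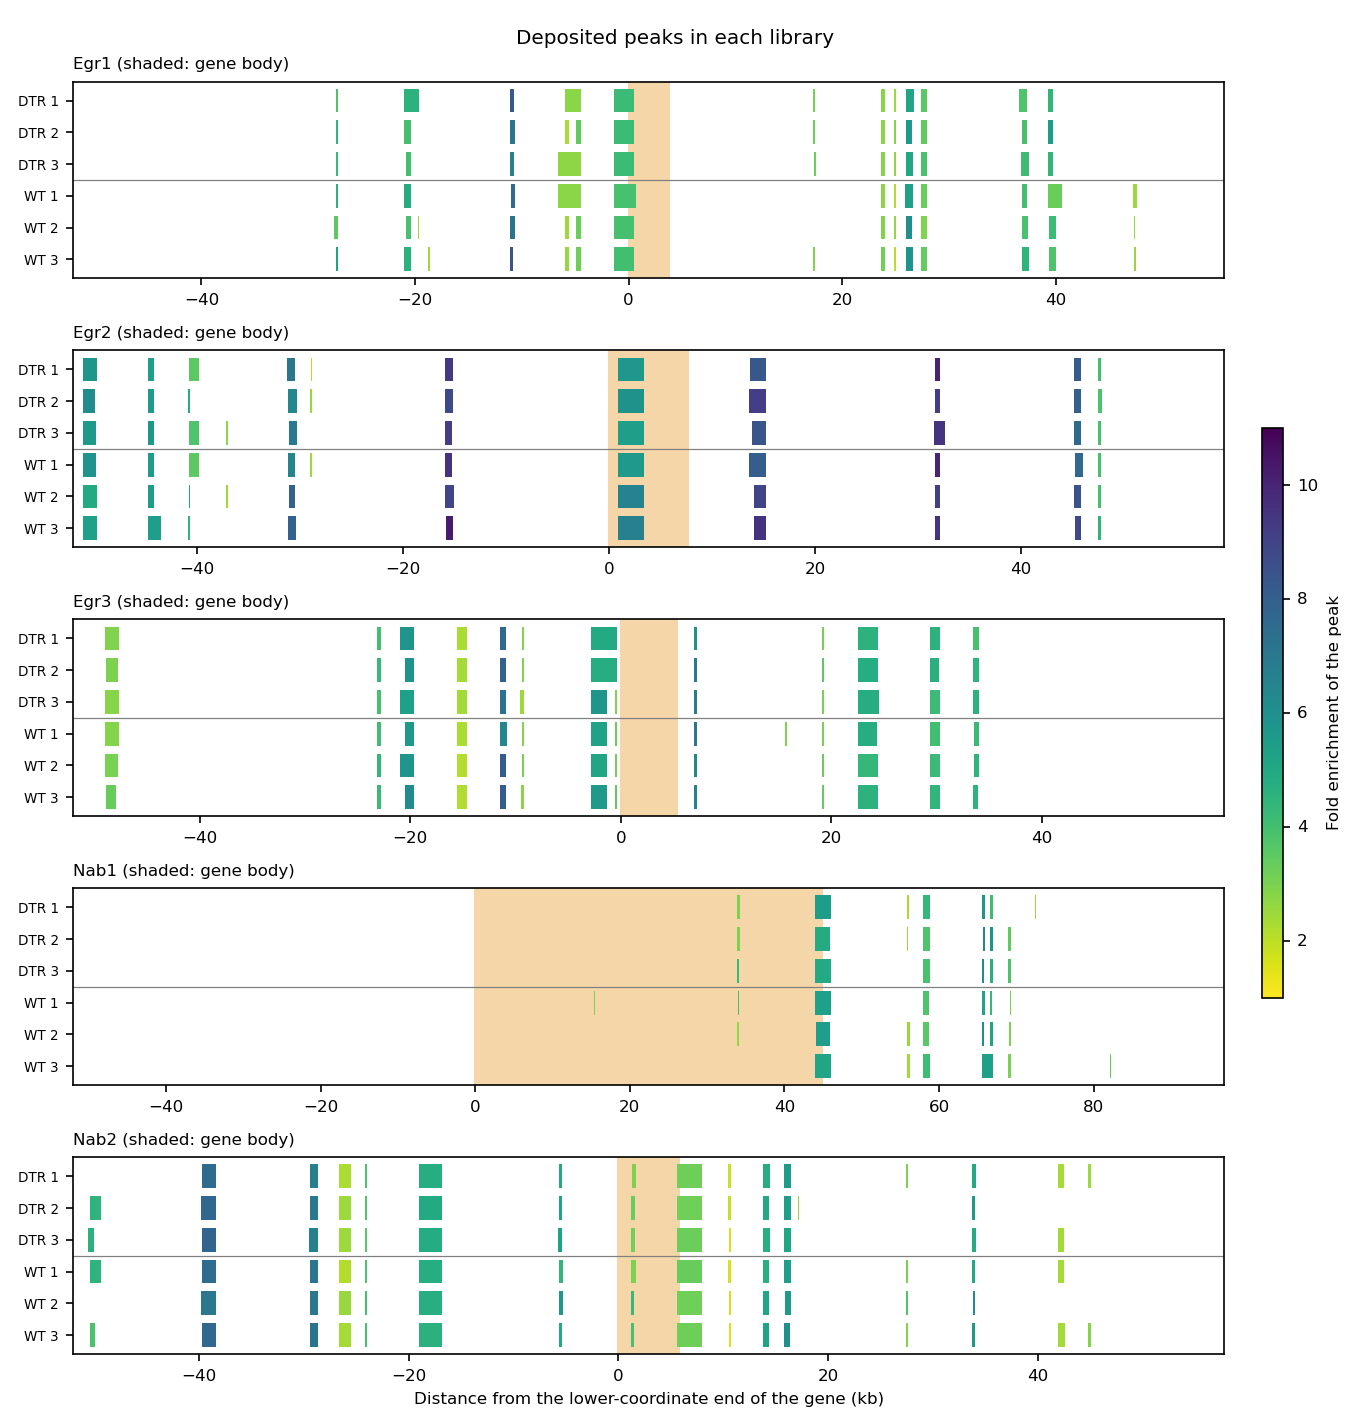
Deposited peaks along the window of each gene, 1 row per library with the DTR libraries above the WT libraries; the horizontal axis is the distance from the lower-coordinate end of the gene in kb, the shading is the gene body and the colour is the fold enrichment of the peak. The rows of a gene line up across the 6 libraries, the darkest peaks are the distal ones of Egr2, and the Egr3 start peak is split in DTR 3 and the WT libraries.

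Egr3 encodes a relative of EGR1 that acts in muscle spindle development and in lymphocyte activation. Its window on chromosome 14 reaches into Pebp4, the long noncoding RNA Gm33524 and Bin3, which encodes a membrane-curving BAR protein. No peak lay over the Egr3 body in any library, and the start region lay between 2.85 and 0.34 kb below it. The window held 12, 12 and 13 peaks in DTR against 14, 13 and 13 in WT, yet these covered more sequence in DTR, at 11028, 10181 and 10478 bp against 9979, 9930 and 9414 bp. Every DTR library lay above every WT library in covered length, by 788 bp on average and a log2 difference of 0.11 (SE 0.05). The difference was not called (limma adjusted p = 0.295), and 23.9% of all gene windows showed all DTR libraries above all WT libraries in covered length. It is close to the median log2 difference of all windows, 0.09, and with each library centred on its median it was 0.02 (adjusted p = 0.934). An exact permutation test over the libraries, two-sided, gave p = 0.1, the smallest that 20 splits allow. It was 1 of 25 such tests over 5 genes and 5 measures, and its Benjamini-Hochberg adjusted p was 1.

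The start region, 14:70074472-70076974, differed in how the peak was cut. DTR replicates 1 and 2 had 1 unbroken peak of 2474 and 2496 bp. DTR replicate 3 had a peak of 1522 bp and one of 230 bp with a gap of 735 bp between them. The WT libraries had the same pair, of 1526 and 238 bp, 1523 and 219 bp, and 1521 and 210 bp, with gaps of 736, 744 and 737 bp. The covered width was thus 2474, 2496 and 1752 bp in DTR against 1764, 1742 and 1731 bp in WT, and the groups overlapped (log2 difference 0.34, SE 0.15, limma adjusted p = 0.674). DTR replicate 3 decided this: without it the log2 difference was 0.51 with an adjusted p of 0.0164 by limma. Each library was left out in turn, and the share of all regions called without this one is not given here. Fold enrichment over the region was 4.92, 4.76 and 5.40 in DTR against 4.96, 4.84 and 5.37 in WT. The value of a pair leaves out the gap, which an unbroken peak spans. These values therefore cannot show whether the libraries with 1 unbroken peak were more or less enriched. Without the start region the Egr3 window had 8554, 7685 and 8726 bp covered in DTR against 8215, 8188 and 7683 bp in WT, which overlap (exact permutation p = 0.4).

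The median width of Egr3 peaks was 772, 704 and 622 bp in DTR against 584, 579 and 604 bp in WT, without overlap (exact permutation p = 0.1, adjusted p = 1). When only peaks with at least 500 bp inside the window were counted, Egr3 had 8, 8 and 8 in DTR and 7, 7 and 7 in WT. limma called this count (log2 difference 0.17, adjusted p = 6.07e-05), with no spread among the libraries of either group. By that count 1.17% of 17367 windows were called higher and 0.0461% lower in DTR. The extra peak is in Bin3 at 33.4 kb, 14:70110763-70111325, singled out after its values were seen, where widths of 556, 537 and 547 bp in DTR and 426, 391 and 481 bp in WT lie on either side of 500 bp. Its width differed by 0.34 on the log2 scale (SE 0.09, limma adjusted p = 0.477), and its fold enrichment overlapped, at 3.94, 4.51 and 4.59 in DTR against 4.22, 4.50 and 4.57 in WT. The largest differences in fold enrichment were small: at −15.6 kb, in Gm33524, it was 2.28, 2.34 and 2.39 in DTR against 2.26, 2.15 and 2.20 in WT, without overlap and with an adjusted p of 0.597 by limma. At −49.0 kb it was 2.89, 2.97 and 2.82 in DTR against 2.84, 3.05 and 3.31 in WT, and at 29.4 kb 4.58, 4.66 and 4.20 against 4.04, 4.24 and 4.47, both overlapping.

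Nab1 encodes the corepressor that is more evenly expressed across tissues. Its window on chromosome 1 also holds the small nuclear RNA gene Gm23460, the pseudogenes Gm5976 and Rps27a-ps1 and the long noncoding RNA Gm553. It held 7, 7 and 6 peaks in DTR and 7, 7 and 6 in WT, covering 4602, 4448 and 4272 bp against 4033, 4335 and 5240 bp. The DTR values all lay within the WT range, with a log2 difference of −0.02 in covered length (SE 0.10, 95% interval −0.25 to 0.21, limma adjusted p = 0.907). Its fold enrichment was 4.66, 4.51 and 4.67 in DTR against 4.72, 4.52 and 4.603 in WT. The start region with the EGR motifs, 1:52499780-52501889, had fold enrichments of 5.47, 4.90 and 4.98 in DTR against 5.34, 5.42 and 5.09 in WT and widths of 2054, 1999 and 2094 bp against 2031, 1867 and 2060 bp, both overlapping. In the flank, the region at 57.9 kb had 4.35, 3.80 and 3.89 in DTR against 3.78, 3.62 and 4.13 in WT, and that at 65.5 kb had 5.001, 6.07 and 5.36 against 4.83, 5.604 and 5.36. Nab1 was the gene with the fewest regions found in every library, 3 of 9. The 3 were its start and a pair of flanking ones.

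Nab2 encodes the inducible corepressor. Its window on chromosome 10 is gene-rich and includes Stat6, which encodes the factor activated by interleukin 4, Lrp1, a lipoprotein receptor gene, Nemp1, Myo1a and the noncoding genes Gm40802, Gm30989, 1700012D01Rik and Gm16230. It held 15, 14 and 14 peaks in DTR against 15, 13 and 16 in WT, covering 11747, 11337 and 11372 bp against 12019, 10459 and 11430 bp. The DTR libraries lay inside the WT range, with a log2 difference of 0.03 (SE 0.06, 95% interval −0.11 to 0.16, limma adjusted p = 0.807). Its fold enrichment was 4.37, 4.67 and 4.51 in DTR against 4.43, 4.64 and 4.45 in WT. The start region, 10:127666543-127668930, overlaps both Nab2 and 1700012D01Rik. There the fold enrichment was 3.22, 3.18 and 3.24 in DTR against 3.31, 3.15 and 3.20 in WT, the lowest of the 5 start regions, and the width was 2369, 2378 and 2366 bp against 2376, 2365 and 2388 bp. The interval of the log2 difference in its fold enrichment was −0.13 to 0.13.

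A second peak within the Nab2 body, 10:127662150-127662597, had fold enrichments of 2.96, 3.33 and 3.17 in DTR against 2.96, 4.27 and 3.90 in WT, with a log2 difference of −0.22 (SE 0.13, limma adjusted p = 0.626). It was 415, 365 and 323 bp wide in DTR against 446, 218 and 235 bp in WT, so that WT replicate 1 lay nearest to the DTR libraries in both measures. At 10.5 kb the weak region 10:127671426-127671692 was higher in all DTR libraries, at 1.78, 1.88 and 1.66 against 1.64, 1.64 and 1.60 in WT. It was also wider, at 267, 267 and 262 bp against 244, 237 and 237 bp. Neither passed the test, with adjusted p of 0.467 for fold enrichment and 0.663 for width by limma. At 33.7 kb, in Nemp1, the fold enrichment was 4.93, 5.68 and 4.89 in DTR against 4.995, 6.27 and 5.65 in WT, overlapping (adjusted p = 0.741 by limma).

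Over all 5 windows there were 65 merged regions. Of these, 49 or 75.4% had a peak in all 6 libraries, against 74.1% of the 92757 merged regions of the genome. By gene these were 11 of 14 for Egr1, 10 of 12 for Egr2, 12 of 13 for Egr3, 3 of 9 for Nab1 and 13 of 17 for Nab2. The other 16 were short, 142 to 661 bp, and weak, with a median fold enrichment of 2.67 against 4.54 for the 49. Of the 16, 5 were found in more DTR than WT libraries, 7 in more WT than DTR libraries and 4 in equal numbers, and 6 were found in 1 library.

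None of the 49 regions was called in fold enrichment or in width by limma. Over all 68712 such regions, 0.00437% were called higher and 0% lower in fold enrichment, and 0.211% and 0.0189% in width. Before adjustment, 3 of the 49 had a p under 0.05 for fold enrichment and 4 for width, where 10.6% and 7.42% of all regions did. The fold enrichment was higher in DTR in 18 regions and lower in 31, and the width was higher in 31 and lower in 18. All DTR values lay above all WT values in fold enrichment at 5 of the 49, where 10.4% of all regions did so, and below at 1, where 5.11% did. In width these counts were 5 above and 3 below, where 13% and 1.87% of all regions did so. The sole region lower in all DTR libraries in fold enrichment, named after its values were seen, lay 29.5 kb below the lower-coordinate end of Nab2, 10:127631451-127632304. It had 6.71, 7.002 and 6.66 in DTR against 7.10, 7.01 and 7.14 in WT, so that DTR replicate 2 lay just under the lowest WT library (log2 difference −0.06, SE 0.05, limma adjusted p = 0.760). The regions wider in all DTR libraries were those at 23.6 and 24.8 kb of Egr1, 33.4 kb of Egr3 and −26.6 and 10.5 kb of Nab2. Those narrower in all DTR libraries were the Egr1 start, the Egr1 region at 39.3 kb and the Nab2 region at −24.2 kb. The median log2 difference of the 49 was −0.04 in fold enrichment, against 0.01 over all regions, and 0.05 in width, against 0.04.

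**Figure D4:**
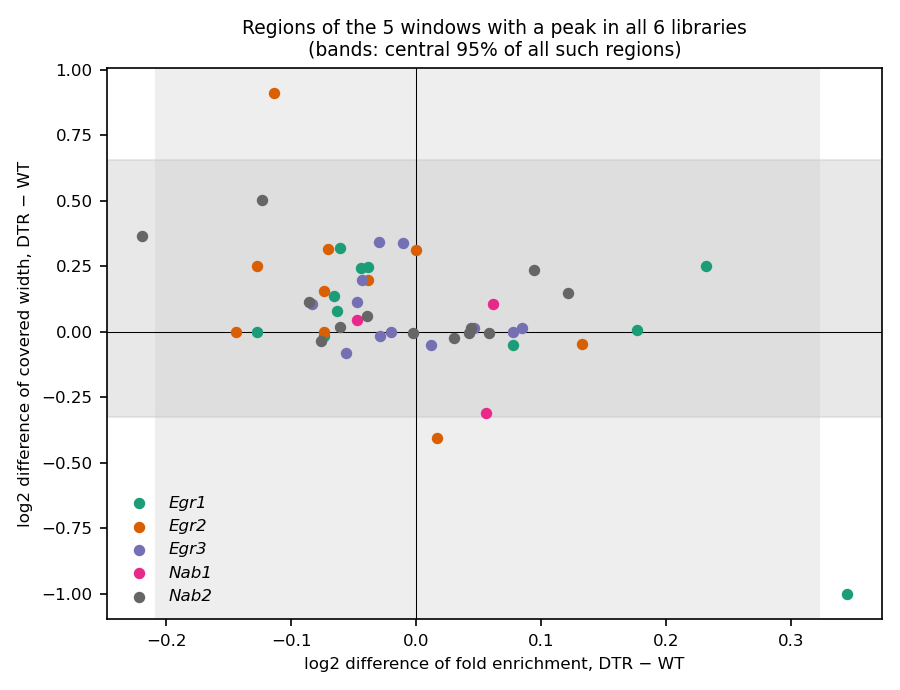
Each point is 1 of the 49 regions found in all 6 libraries, coloured by gene, with the log2 difference (DTR minus WT) of fold enrichment on the horizontal axis and of covered width on the vertical axis; grey bands hold the central 95% of all 68712 such regions. The Egr1 region at 39.3 kb stands apart at 0.34 and −1.0004, and the Egr2 region at −40.8 kb lies at 0.91 in width.

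Genes around the EGR and NAB circuit were read in the same way. Of its other family members, Egr4 and the related zinc finger gene Wt1 had no peak within 1 kb of the gene body in any library. None of the 13 genes of the inducing pathway, the 15 immediate early genes induced alongside EGR factors, the 19 genes described as EGR or NAB targets, the 11 NuRD subunits or the 9 neutrophil genes was called for number of peaks, covered length or fold enrichment. The median log2 difference in covered length was 0.08 for the inducing pathway, 0.08 for the immediate early genes, 0.07 for the targets, 0.07 for NuRD and 0.15 for the neutrophil genes, against 0.09 over all windows. Of the 68 tested genes of these lists, Wt1 included, 62 had a positive difference in covered length, where 88.5% of all windows had one. All DTR libraries lay above all WT libraries in 4 of 13, 3 of 15, 6 of 19, 3 of 11 and 4 of 9 genes in the order above, and below in none. The background for lying above was the 23.9% given for Egr3, and for lying below it was 0.325%.

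In the inducing pathway, the window of Creb1, a cyclic AMP response factor, had 5374, 5502 and 5648 bp covered in DTR against 4526, 4596 and 4490 bp in WT (log2 difference 0.28, SE 0.05, limma adjusted p = 0.117). Map2k2, which encodes the kinase MEK2, had 10986, 11587 and 10859 bp in DTR against 10510, 9943 and 10755 bp in WT, a difference of 0.10 (adjusted p = 0.320). Among the immediate early genes the groups did not overlap at Ier3, Nr4a1, a nuclear receptor gene needed by Ly6C-low monocytes, and Klf6, at 0.14, 0.13 and 0.09 (adjusted p = 0.281, 0.308 and 0.307). Among the targets, Thbs1, which encodes thrombospondin-1, had 6562, 9091 and 8654 bp in DTR against 6141, 5548 and 6328 bp in WT, so that DTR replicate 1 lay close to WT (log2 difference 0.42, SE 0.12, limma adjusted p = 0.216). Pdgfa, a growth factor gene, had 5302, 5076 and 5206 bp against 4576, 4374 and 4423 bp, a difference of 0.22 (adjusted p = 0.175), and Cd44, a hyaluronan receptor gene, differed by 0.21 (adjusted p = 0.187). The NuRD genes Rbbp7, Mta2 and Chd3 differed by 0.13, 0.12 and 0.10 (adjusted p = 0.304, 0.278 and 0.301).

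The neighbouring calprotectin genes S100a9 and S100a8 shared much of their windows, with 5289, 4350 and 4373 bp in DTR against 3782, 3517 and 3607 bp in WT for S100a9 and a log2 difference of 0.36 (SE 0.09, limma adjusted p = 0.194). S100a8 differed by 0.32 (adjusted p = 0.186) and Cebpe, a granulocyte transcription factor gene, by 0.22 (adjusted p = 0.216). Most of the 9 neutrophil genes also stand in the neutrophil marker list, whose covered length is given above, and its part in these values was not tested. Among the marker lists, Retnlg was the sole gene called, with 3, 3 and 3 peaks in its window in DTR against 2, 2 and 2 in WT and no spread in either group (limma adjusted p = 9.80e-08). None of these peaks lay within 1 kb of the Retnlg gene body. Retnlg was 1 of 56 markers tested, and 1.29% of all windows were called higher in DTR by the number of peaks.

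**Figure D5:**
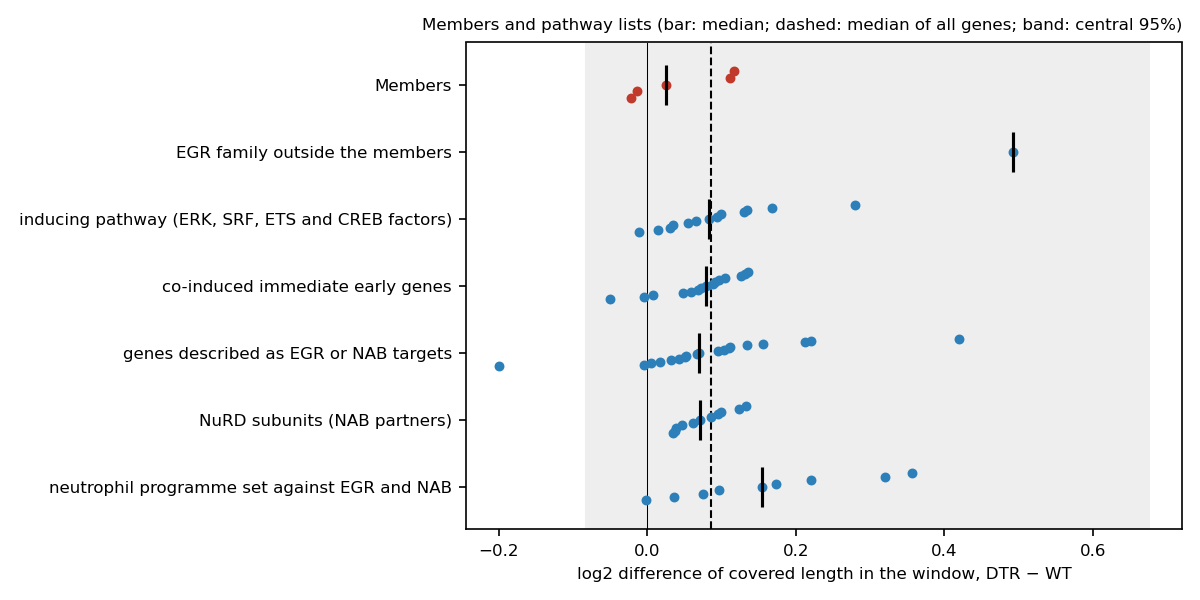
Each point is the log2 difference (DTR minus WT) in covered length of 1 gene window, for the 5 EGR and NAB genes (red) and the 6 lists (blue); black bars are list medians, the dashed line the median of all 18152 windows and the grey band their central 95%. All points lie inside the band except Pdgfb at −0.20.

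The genes whose covered length over the 6 libraries was most like that of each member were found by Euclidean distance between log2 values. They were Samd14 and Sbsn for Egr1 (distances 0.17 and 0.19), Gtf2h3 and Prkag3 for Egr2 (0.06 and 0.06), Crb3 and Hmga1 for Egr3 (0.08 and 0.08), Npr2 and Dcaf6 for Nab1 (0.16 and 0.17), and Fbxl16 and Tnfrsf12a for Nab2 (0.07 and 0.07). Gtf2h3, for example, had 9242, 8769 and 9643 bp in DTR against 9010, 7876 and 8226 bp in WT, beside the Egr2 values above.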

How the data were processed

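ATAC-seq peaks of 6 mouse monocyte libraries, 3 DTR and 3 WT, were analysed, grouped by sample title. Tools named in the submitters' processing notes are MACS2, Bowtie2 2.4.4, Bowtie and fastp; the build, the parameters and any Tn5 shift were not given in the sources used here. The authors deposited 1 broad-peak list per library, with a score, a signal value read as fold enrichment (a ratio) and the −log10 of p and q for each peak; read counts and depth are unknown, and fold enrichment and width can move with depth. The members and lists were chosen with earlier results of these data known, and some genes of the lists are not reported here by name.

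Peaks overlapping a RefSeq GRCm38.p6 gene body with 50 kb flanks by at least 1 bp were counted, and merged where they overlapped or touched. To check the build, promoters with a region of all 6 libraries were counted: 32.8% to 52.3% over 19 chromosomes, against 1.88% to 7.63% after moving promoters by 5000 bp either way. Coordinates are those of the lists, from 1. log2 values (pseudocount 1 for windows) were fitted with limma 3.58.1 in R 4.3.3 over all features, with Benjamini-Hochberg adjustment at 0.05, and single values by exact permutation, two-sided. The code was tested on simulated data. There a log2 change of 0.5 was called in 47, 57 and 94 of 100 windows for number, covered length and fold enrichment. In regions it was called in 39 of 100 for fold enrichment and 30 of 100 for width. A change of 1 was called in 72, 89, 98, 87 and 52 of 100, in the same order. Changes of such size can therefore go uncalled. Named list genes had non-overlapping groups and the largest differences in covered length, up to 3 per list and direction; named regions were the start, gene body and up to 3 per gene by difference in fold enrichment, unless said otherwise. Alternatives covered peak stringency, list length, centring, flanks, overlap, merging, pseudocount, filters, a replicate block and leaving out each library.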

Additional observations from a re-analysis of the deposited data

How the results depend on the processing

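Of 808 alternative values under 19 settings, 737 neither turned a direction nor crossed the threshold, 58 changed sign, 11 counts moved and 2 newly passed the threshold, the widths of the Egr1 region at 39.3 kb and of the Egr3 start. The Egr3 count of peaks with at least 500 bp inside, among the 58, passed it too. No member was called in any other setting; small differences such as those that reversed cannot be resolved, and without read counts depth sets no stated limit.

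Values are log2 differences, DTR minus WT. For the number of peaks, Egr2 was −0.0837 with lists of equal length and −0.0498 when centred, Egr1 0.0041 with a flank of 100 kb, and Egr3 0.17 and Nab2 0.0060 with an overlap of 500 bp, where 1 member was called. Nab1, with a reported difference of 0 and so no direction, ranged from −0.22 with equal lists to 0.27 with stricter peaks. For covered length, stricter peaks gave Egr1 0.0291 and Nab1 0.0655, equal lists Egr1 0.0111 and Nab2 −0.0140, centring Nab2 −0.0699, and an overlap of 500 bp Egr1 0.0257. The flanks gave Egr2 −0.0015 and Nab1 0.23 (0 kb), Egr1 0.0658 and Nab1 0.13 (10 kb), and Egr1 0.0716 and Nab1 0.11 (100 kb). For fold enrichment, Nab1 was 0.0260 with equal lists and 0.0037 centred, Nab2 −0.0166 (0 kb), Egr3 −0.0194 and Nab2 −0.0149 (10 kb), Egr1 −0.0137 and Nab2 −0.0169 (100 kb), and Egr1 −0.0159 with an overlap of 500 bp. By the highest peak it was −0.0574 for Egr1, −0.0346 for Egr3 and 0.0959 for Nab1. Centring turned the widths of the Egr1 region at 27.4 kb to −0.0742, the Egr3 region at −15.6 kb to −0.0660 and the Nab1 start to −0.0347. The cause was not tested.

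Leaving out each library in turn moved the number of peaks between −0.0642 and 0.0642 (Nab1) and −0.11 and 0.0342 (Nab2), covered length between −0.0887 and 0.0990 (Egr1), −0.10 and 0.0861 (Nab1) and −0.0295 and 0.0708 (Nab2), and window fold enrichment between −0.0031 and 0.0579 (Egr1), −0.0144 and 0.0285 (Egr3), −0.0123 and 0.0133 (Nab1) and −0.0172 and 0.0220 (Nab2). Region fold enrichment ranged between −0.0636 and 0.0329 (Egr3 start), −0.0207 and 0.12 (Nab1, 65.5 kb) and −0.0176 and 0.0173 (Nab2 start), and width between −0.0155 and 0.0251 (Egr1, 27.4 kb), −0.0346 and 0.19 (Egr3, −49.0 kb), −0.0290 and 0.0276 (Egr3, 29.4 kb) and −0.0067 and 0.0003 (Nab2 start). Between 0 and 1 member region was called in width, 0 and 1 was DTR-only, 1 and 2 were WT-only and 49 to 51 were in every library. WT-only regions numbered 0 with stricter peaks and with flanks of 0 and 10 kb, and regions in every library 5, 13 and 107 with flanks of 0, 10 and 100 kb.

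Same-numbered libraries correlated by 0.0048, 0.07 and −0.03 in their deviations in fold enrichment. Libraries with different numbers ranged from −0.09 to 0.09. Whether same-numbered libraries were prepared together was not tested. With the replicate number as a block 0 members were called, and the Egr3 covered length kept its log2 difference of 0.11 (limma adjusted p = 0.227).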
